A study of Homo sapiens with 9 samples.

Results

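The genes described here are 10 receptors and receptor subunits of the monocyte surface, CD14, CD33, CD36, CD4, FCGR1A, FCGR2A, FCER1G, TLR2, TLR4 and CLEC12A, out of 60623 genes with a value in every library. They were chosen by name as surface proteins of monocytes, and each name belonged to 1 identifier. RNA-seq was performed on 9 libraries of U937, a human leukemia cell line of the monocytic lineage. A Tet-On retrovirus with puromycin selection was used to make 3 stable lines, which carried the empty vector, HA-tagged AML1-ETO or HA-tagged ETO2-GLIS2. AML1-ETO joins the DNA-binding domain of AML1 (RUNX1) to the corepressor ETO (RUNX1T1), and ETO2-GLIS2 joins the related corepressor ETO2 (CBFA2T3) to the zinc fingers of GLIS2. Each fusion line was 1 selected clone, so clone and fusion protein cannot be told apart in any comparison between lines, at 0 h or later. The lines were analysed at 0, 12 and 48 h of 5 μg/ml doxycycline, which the empty vector line also received, with 1 library for each of the 9 conditions. No difference between libraries could therefore be checked against replicates, and none was tested.

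Fc receptors bind the constant part of antibodies and pass the signal to Src-family and Syk kinases through tyrosine motifs. FCGR1A, the high-affinity IgG receptor, lacks such a motif and depends on the gamma chain encoded by FCER1G, whereas FCGR2A carries its own. Toll-like receptors recognise microbial products, and CD14 hands lipopolysaccharide to TLR4 and lipopeptides to TLR2. CD36 takes up oxidised lipoproteins and fatty acids, CD33 and CLEC12A are inhibitory receptors of myeloid cells that are also used as markers of acute myeloid leukemia, and CD4 on monocytes is the same protein as the T-cell coreceptor.

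The upstream sequences of the 4 genes that were past 2-fold between the AML1-ETO line and the empty vector line at 48 h are shown first, because AML1-ETO retains the DNA-binding domain of RUNX1. Each is the 250 bases before a transcription start of RefSeq on GRCh38.p14, given 5′ to 3′ on the plus strand, which is the strand of all 4 genes. FCER1G is shown at chr1:161215045-161215294, CD36 at chr7:80638392-80638641, CLEC12A at chr12:9971159-9971408 and TLR2 at chr4:153684030-153684279. Capitals mark the letters TGTGGT (the core RUNX site), GAGGAA (a PU.1 core) or TGGGGGG (a GLIS-like run), or their reverse complements.
FCER1G: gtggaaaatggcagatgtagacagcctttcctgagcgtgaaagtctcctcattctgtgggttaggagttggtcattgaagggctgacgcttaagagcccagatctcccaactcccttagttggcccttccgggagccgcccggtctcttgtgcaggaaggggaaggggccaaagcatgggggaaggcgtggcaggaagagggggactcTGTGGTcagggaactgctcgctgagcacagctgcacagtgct
CD36: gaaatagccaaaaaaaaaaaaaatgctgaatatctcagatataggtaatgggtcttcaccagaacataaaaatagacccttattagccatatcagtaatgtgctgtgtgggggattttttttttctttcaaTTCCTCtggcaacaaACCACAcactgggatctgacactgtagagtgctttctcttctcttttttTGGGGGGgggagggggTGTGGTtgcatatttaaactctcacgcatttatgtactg
CLEC12A: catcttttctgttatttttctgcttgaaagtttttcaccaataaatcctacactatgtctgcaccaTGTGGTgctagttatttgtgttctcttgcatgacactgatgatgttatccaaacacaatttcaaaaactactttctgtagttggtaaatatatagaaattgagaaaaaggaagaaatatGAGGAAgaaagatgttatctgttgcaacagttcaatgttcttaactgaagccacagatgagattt
TLR2: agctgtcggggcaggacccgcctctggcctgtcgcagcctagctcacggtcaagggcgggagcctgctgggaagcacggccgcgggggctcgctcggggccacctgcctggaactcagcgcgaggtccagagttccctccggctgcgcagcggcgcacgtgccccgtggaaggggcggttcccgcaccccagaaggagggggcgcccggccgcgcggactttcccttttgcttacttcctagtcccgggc

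FCER1G held TGTGGT with its leftmost base at -42 from the start, and CLEC12A held it at -184 together with GAGGAA at -65. The CD36 start shown, 1 of 6 in the table, was the one with the most matches. It held TGTGGT at -39 on the gene's strand and at -104 on the other strand. GAGGAA was at -119 on the other strand and TGGGGGG at -55. The TLR2 window held none of these letters. Both strands of 35116 windows of RefSeq starts, from 250 bases before to 50 after, were searched. TGTGGT was present in 13.1% of them, its variant TGCGGT in 7.29%, GAGGAA in 27.9%, the C/EBP pattern TTGCNNAA in 10.5% and TGGGGGG in 7.76%. Windows were found for 9 of the 10 genes (CD4 had no entry). Of these, 3 held TGTGGT (CD36, CLEC12A and FCER1G), 7 held GAGGAA (CD14, CD33, CD36, CLEC12A, FCGR1A, FCGR2A and TLR4), 1 held TGGGGGG (CD36) and none held TGCGGT or TTGCNNAA in these windows. Counted by window, as the shares above are, TGTGGT was in 4 of 14, GAGGAA in 10 and TGGGGGG in 1, and CD36 supplied 6 of the 14. The CD36 windows from chr7:80638266 and chr7:80638392 overlap and share a TGTGGT and a GAGGAA match, each counted in both. The CD36 windows from chr7:80601957 and chr7:80646196 held GAGGAA alone. Those from chr7:80623842 and chr7:80645999 held none of the patterns. No pair of these patterns overlapped at a match in the 4 sequences shown. A match gives only the letters and does not show that a factor is bound.

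Levels are in FPKM, read counts scaled by exon length and library size, which allows comparison between genes. The library sizes implied by the values were 15136402 to 18443645 reads. RUNX1T1, whose coding part lies in the AML1-ETO construct, was 0.512, 22.2 and 28.7 FPKM at the 3 hours with AML1-ETO and at most 0.0240 FPKM without it. The ETO2-GLIS2 construct is read by CBFA2T3, at 4.10, 11.4 and 12.6 FPKM, and by GLIS2, at 2.39, 6.79 and 8.85 FPKM, the transcripts of the cells' own genes included. Of the markers of other cell types, CD3D, CD3E, CD3G, CD79B, MS4A1, HBB, HBA2, GP9, PF4 and FCGR3B were at 0 in all 9 libraries, and the summed markers reached at most 0.283 FPKM for T cells and 0.157 FPKM for erythroid cells. The sums were 1.07 to 2.37 FPKM for megakaryocytes, 1.91 to 5.77 FPKM for B cells and 3.13 to 19.4 FPKM for neutrophils. The 8 monocytic markers were LYZ, CSF1R, ITGAM, SPI1, MNDA, AIF1, CST3 and CD68. They summed to 736 to 2003 FPKM in 8 libraries and to 199.6 FPKM in the AML1-ETO line at 48 h. LYZ led the sum, with 970 of 1349 FPKM in the AML1-ETO line at 0 h and 45.1 FPKM at 48 h. CD68 was at most 0.0283 FPKM, and 81.6% of its exon bases lie under another annotated gene on the same strand. Fewer expressing cells and less RNA per cell cannot be told apart in these bulk libraries.

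Calls required a change of more than 2-fold on log2(FPKM + 0.01) and a mean FPKM of at least 1 in the pair of libraries compared. Where 1 library of the pair was under 1 FPKM, a gene that passed could be called only towards the other library. This holds for CD36 with AML1-ETO and for several genes of the other lists. Square brackets give exact 95% intervals from the reads recovered from the FPKM values, and they cover counting error only, not the variation between cultures. In the AML1-ETO line, 9 of the 10 genes passed the expression filter at 48 h against 0 h, of which CD36 and TLR2 were called higher and FCER1G and CLEC12A lower. The background was 17.1% of all genes higher and 11.3% lower. In the ETO2-GLIS2 line 8 genes passed, of which FCER1G and CD33 were called higher and none lower (background 10.6% higher and 2.51% lower). In the empty vector line 7 passed and FCER1G was called higher (background 7.82% higher and 2.9% lower). The same background shares of each line stand beside the 48 h counts of the other gene lists below. The median log2 fold change of the genes that passed was 0.11 with AML1-ETO, 0.48 with ETO2-GLIS2 and 0.55 with the empty vector, beside 0.22, 0.16 and 0.16 over all genes tested.

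**Figure D1:**
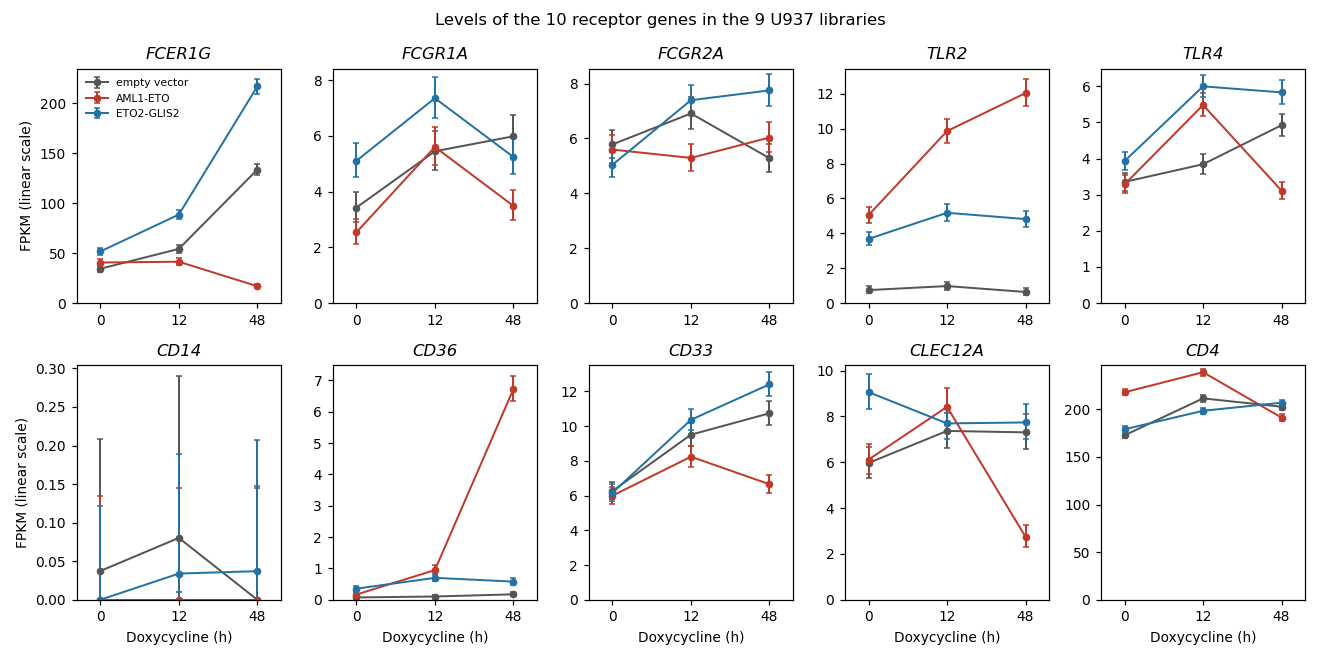
FPKM (linear axis from 0, a different range for each gene) of the 10 receptor genes at 0, 12 and 48 h of doxycycline in the empty vector, AML1-ETO and ETO2-GLIS2 lines. Each point is 1 library and the bars are 95% Poisson intervals of its reads, which cover counting error only; FCER1G parts between the lines at 48 h (16.8 FPKM with AML1-ETO, 217 FPKM with ETO2-GLIS2), while CD4 stays between 173 and 239 FPKM.

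FCER1G (ENSG00000158869, chr1:161215295-161219245 in RefSeq on GRCh38.p14, as for the genes that follow) encodes the gamma chain shared by the high-affinity IgG receptor, the IgA receptor FCAR and the IgE receptor. Its levels at 0, 12 and 48 h were 34.3, 54.1 and 133 FPKM with the empty vector. With ETO2-GLIS2 they were 51.6, 88.5 and 217 FPKM. The AML1-ETO line gave 40.5, 41.3 and 16.8 FPKM. The uninduced lines were close to each other, the values of 2 lines climbed at each time, and that of the AML1-ETO line stayed level to 12 h and then dropped. Against 0 h, FCER1G rose 4.20-fold with ETO2-GLIS2 (log2 2.07 [1.96, 2.18]) and 3.89-fold with the empty vector (log2 1.96 [1.82, 2.10]), and fell 2.41-fold with AML1-ETO (log2 -1.27 [-1.48, -1.05]). Because the empty vector line also rose, the subtraction of its change leaves 0.11 for ETO2-GLIS2 and -3.23 for AML1-ETO on the log2 scale. At 48 h the AML1-ETO library was 7.92-fold below the empty vector library and 12.9-fold below the ETO2-GLIS2 library.

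FCGR1A (ENSG00000150337, chr1:149782694-149800609) was 3.42, 5.44 and 5.98 FPKM in the empty vector line at 0, 12 and 48 h. The AML1-ETO line gave 2.53, 5.597 and 3.49 FPKM, and the ETO2-GLIS2 line 5.10, 7.35 and 5.24 FPKM. Both fusion lines peaked at 12 h, whereas the empty vector line was highest at 48 h. The 12 h value of the AML1-ETO line, 2.20-fold over 0 h (log2 1.14 [0.83, 1.46]), was the only call among the 10 genes at 12 h. There, 1 of 8 genes that passed the filter was called higher in the AML1-ETO line, beside 6.4% of all genes higher and 2.34% lower. None of 7 genes was called in the empty vector line (5.49% higher and 1.76% lower among all genes), and none of 8 in the ETO2-GLIS2 line (2.94% higher and 1.38% lower). The 0 h library of the AML1-ETO line was itself the lowest of the 9 for FCGR1A, and at 12 h its level was 1.03-fold that of the empty vector line (log2 0.04 [-0.22, 0.30]). At 48 h against 0 h the log2 changes of FCGR1A were 0.80, 0.46 and 0.04 in the empty vector, AML1-ETO and ETO2-GLIS2 lines, and the last became -0.13 after rescaling the libraries by the median ratio.

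FCGR2A (ENSG00000143226, chr1:161505457-161524048), a low-affinity IgG receptor, was steadier. At 0, 12 and 48 h it was 5.78, 6.91 and 5.28 FPKM with the empty vector, 5.595, 5.29 and 6.03 FPKM with AML1-ETO and 5.04, 7.40 and 7.75 FPKM with ETO2-GLIS2. No change of FCGR2A reached 2-fold, and the largest at 48 h was 1.54-fold with ETO2-GLIS2 (log2 0.62 [0.45, 0.79]). In the AML1-ETO line its 48 h change of log2 0.11 became -0.06 after the same rescaling. Reads of these receptors are shared with near-identical copies, which makes their levels uncertain. FCGR1B ranged from 0.479 to 1.49 FPKM and FCGR1CP from 1.82 to 5.42 FPKM over the 9 libraries. With AML1-ETO, FCGR2C was 0.185 FPKM uninduced and 1.84 FPKM after 48 h, and FCGR2B 0.0816 and 0.820 FPKM. In addition, 19.6% of the exon bases of FCGR2A lie under other annotated genes on the same strand and 8.21% of those of FCGR1A under H2BC18 on the opposite strand. The library kit does not mark strand.

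The partners of these receptors did not follow a single pattern. FCAR, which signals through the same gamma chain, was 3.01, 31.1 and 56.3 FPKM in the AML1-ETO line, an 18.6-fold rise at 48 h (log2 4.22 [3.999, 4.46]), while FCER1G fell. It was 0.684, 0.993 and 1.84 FPKM in the empty vector line and 1.65, 1.65 and 3.34 FPKM in the ETO2-GLIS2 line, so that the AML1-ETO line was the highest at every hour, 0 h included. Of the exon bases of FCAR, 22.5% lie under another annotated gene on the same strand. TYROBP, the DAP12 adaptor related to the gamma chain, went from 16.9 to 26.1 and then 1.59 FPKM in the AML1-ETO line. In the empty vector line it went from 8.40 to 21.0 and 28.8 FPKM, and in the ETO2-GLIS2 line it was 23.9, 30.7 and 24.8 FPKM. Both adaptor chains were thus lower at 48 h than at 0 h with AML1-ETO (TYROBP log2 -3.40 [-4.11, -2.78]). FCGRT, the neonatal Fc receptor that recycles IgG, went from 24.3 to 51.9 FPKM with AML1-ETO and from 18.8 to 46.5 FPKM with the empty vector, calls in both, whereas the ETO2-GLIS2 line gave 27.6 and 43.7 FPKM. FCGR3A and FCGR3B were listed at 0 in all 9 libraries.

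Of 12 immunoreceptor signalling genes, 11 passed the filter in each line. In the AML1-ETO line 5 were called lower and none higher at 48 h, with a median log2 fold change of -0.73. In the empty vector line 2 were called higher (TYROBP and FGR), and in the ETO2-GLIS2 line 1 (FGR), with none lower in either and medians of 0.085 and 0.26. The 3 largest falls with AML1-ETO were those of the Src-family kinase FGR, from 23.8 to 1.07 FPKM, TYROBP, and the exchange factor VAV1, from 18.4 to 3.03 FPKM. SYK, the kinase that docks on the gamma chain, went from 63.7 to 38.4 FPKM with AML1-ETO (log2 -0.73 [-0.79, -0.67]), which is under the 2-fold threshold. In the 6 libraries without AML1-ETO it was between 56.6 and 69.4 FPKM. Of 14 other Fc receptor genes, 6 passed in the AML1-ETO line, of which 4 were called higher and none lower, beside 3 of 4 in the empty vector line and 2 of 5 in the ETO2-GLIS2 line. With AML1-ETO, FCGR2C (0.185 to 1.84 FPKM) and FCER2 (0.295 to 2.49 FPKM) passed only through their 48 h level. So did FCAR with the empty vector (0.684 to 1.84 FPKM) and FCER2 with ETO2-GLIS2 (0.420 to 2.47 FPKM). For these genes higher was the only possible call.

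**Figure D2:**
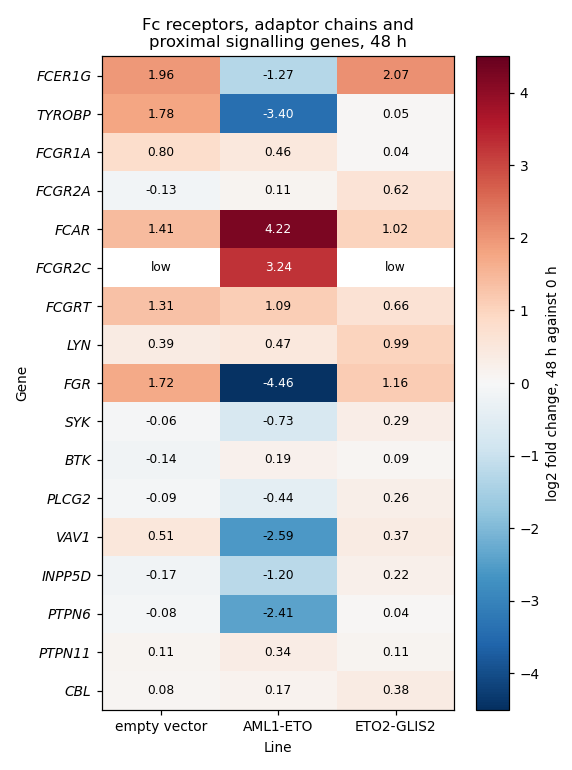
log2 fold change at 48 h against 0 h (colour and printed value; "low" marks a mean under 1 FPKM) of FCER1G, FCGR1A and FCGR2A, of other Fc receptors and of the immunoreceptor signalling genes, with 1 column for each line. In the AML1-ETO column FCER1G (-1.27), TYROBP (-3.40) and FGR (-4.46) are negative and FCAR (4.22) positive, while FCER1G and FGR are positive in both other columns.

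TLR2 (ENSG00000137462, chr4:153684280-153710637) was the member that differed most between the lines before induction. The empty vector line had 0.742, 0.975 and 0.635 FPKM at 0, 12 and 48 h, from 51 to 77 reads per library. The AML1-ETO line had 5.04, 9.86 and 12.0 FPKM and the ETO2-GLIS2 line 3.68, 5.18 and 4.82 FPKM. All 6 libraries of the fusion lines thus lay above all 3 of the empty vector line. At 0 h TLR2 was 6.71-fold higher with AML1-ETO (log2 2.75 [2.38, 3.17]) and 4.90-fold higher with ETO2-GLIS2 (log2 2.29 [1.92, 2.72]) than with the empty vector. It was the only one of the 8 genes that passed the filter to be past 2-fold in each of these comparisons, in which 4.67% and 6.24% of all genes were called. Both comparisons share the empty vector library. At 48 h of doxycycline TLR2 was 2.39-fold higher than at 0 h in the AML1-ETO line (log2 1.25 [1.09, 1.42]), and 1.17-fold lower in the empty vector line, where it was under the filter. The 12 h value, 1.95-fold over 0 h, lay just below the threshold. In the ETO2-GLIS2 line the change at 48 h was 1.31-fold (log2 0.39 [0.18, 0.60]).

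TLR4 (ENSG00000136869, chr9:117704403-117724735), the lipopolysaccharide receptor, stayed within a narrow range of 3.11 to 5.997 FPKM. It was 3.35, 3.84 and 4.92 FPKM with the empty vector, 3.28, 5.48 and 3.11 FPKM with AML1-ETO and 3.93, 5.997 and 5.83 FPKM with ETO2-GLIS2. In the AML1-ETO line the level was highest at 12 h (1.67-fold over 0 h) and back at the 0 h level by 48 h (log2 -0.08 [-0.24, 0.08]), and FCGR1A, CD33, CLEC12A, CD4 and, by a small margin, FCER1G also had their highest value of this line at 12 h. LY96, the MD-2 protein that TLR4 needs to bind lipopolysaccharide, was 1.19, 1.97 and 9.76 FPKM in the AML1-ETO line, from 11, 17 and 83 reads. This was an 8.16-fold rise at 48 h (log2 3.03 [2.13, 4.10]). LY96 was 1.76, 0.827 and 3.25 FPKM in the empty vector line (16, 7 and 28 reads). In the ETO2-GLIS2 line it was 3.59, 3.50 and 7.11 FPKM (37, 35 and 65 reads). The 48 h rises there were 1.84-fold with the empty vector and 1.98-fold with ETO2-GLIS2, below the threshold. MYD88, the adaptor of both receptors, went from 21.1 to 38.1 FPKM with AML1-ETO, a 1.80-fold difference below the threshold. TLR1 and TLR6, which pair with TLR2, did not pass the filter in any line. TLR6 reached 1.40 FPKM in the AML1-ETO line at 48 h, from 0.200 FPKM at 0 h. Of 23 Toll-like receptor partners, 14 passed in the AML1-ETO line, where LY96 was called higher and CD180 and UNC93B1 lower (median log2 -0.56). CD180 was called lower in the empty vector line as well, from 4.71 to 0.779 FPKM, and HSP90B1 in the ETO2-GLIS2 line.

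CD14 (ENSG00000170458, chr5:140631732-140633701), the classical marker of blood monocytes and the co-receptor of both Toll-like receptors, was practically absent. It had 1, 2 and 0 reads in the empty vector line, 0 reads at all hours in the AML1-ETO line, and 0, 1 and 1 reads in the ETO2-GLIS2 line. Its highest level was 0.0802 FPKM. A count of 0 allows up to 3 reads, which correspond to 0.0987 to 0.120 FPKM in these libraries. No fold change can be given, and a difference between lines was not detectable at this depth. By this defining marker the cells did not match blood monocytes, although CD33, CD4, FCER1G, FCGR1A and FCGR2A were present in every library.

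CD36 (ENSG00000135218, chr7:80602207-80679274) showed the largest change of the 10 genes. With AML1-ETO its level was 0.166 FPKM before induction (30 reads), 0.947 FPKM after 12 h (159 reads) and 6.72 FPKM after 48 h (1113 reads). The empty vector line had 0.0735, 0.103 and 0.173 FPKM (13, 17 and 29 reads), and the ETO2-GLIS2 line 0.354, 0.699 and 0.579 FPKM (71, 136 and 103 reads). The AML1-ETO library at 48 h was thus the only one of the 9 above 1 FPKM. Before induction CD36 already differed from the empty vector line by log2 1.08 [0.20, 2.24] with AML1-ETO and 2.12 [1.40, 3.25] with ETO2-GLIS2, at levels below the filter. The rise was 38.2-fold at 48 h (log2 5.26 [4.82, 5.91]), of which 7.04-fold fell between 12 and 48 h. Because the 0 h level was so low, the size depends on the pseudocount, with log2 2.73 at 1 FPKM, and it was 4.12 with the empty vector change subtracted. The first step, 5.43-fold at 12 h, did not enter the calls because the mean was under 1 FPKM. At 48 h the AML1-ETO library was 36.8-fold above the empty vector library and 11.4-fold above the ETO2-GLIS2 library. Among 13 other scavenger receptor genes, 5 passed the filter in the AML1-ETO line. CXCL16 and MERTK were called higher and SCARB1 and MARCO lower. SCARB1, a class B relative of CD36 that binds high-density lipoprotein, went from 33.5 to 12.0 FPKM. It was also lower at 48 h, within 2-fold, in the empty vector line (29.8 and 18.9 FPKM) and the ETO2-GLIS2 line (30.1 and 19.6 FPKM). CXCL16 and MERTK were also called higher in the ETO2-GLIS2 line, where MERTK went from 2.44 to 7.37 FPKM. MARCO was called lower there too, from 1.93 to 0.735 FPKM.

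CD33 (ENSG00000105383, chr19:51211076-51240016) is a sialic acid-binding lectin (Siglec) with inhibitory tyrosine motifs. The uninduced lines were alike, with 6.27, 5.996 and 6.16 FPKM in the order empty vector, AML1-ETO and ETO2-GLIS2. At 12 h they had 9.51, 8.24 and 10.4 FPKM, and at 48 h 10.7, 6.65 and 12.4 FPKM. The empty vector and ETO2-GLIS2 lines climbed at both times, and the AML1-ETO line returned towards its 0 h level. The ETO2-GLIS2 change at 48 h, 2.01-fold (log2 1.01 [0.87, 1.15]), lay just inside the threshold and was lost when the libraries were rescaled by the median ratio (log2 0.84) or when the pseudocount was 0.1 or 1 FPKM. The empty vector change was 1.71-fold (log2 0.78 [0.63, 0.93]), so that the difference between them was 0.23 on the log2 scale. For AML1-ETO the log2 change was 0.15 [-0.02, 0.32], and it became -0.02 after rescaling.

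CLEC12A (ENSG00000172322, chr12:9951268-10006150) is an inhibitory C-type lectin that senses uric acid crystals. The AML1-ETO line had 6.11, 8.42 and 2.74 FPKM at 0, 12 and 48 h, the empty vector line 5.97, 7.37 and 7.30 FPKM, and the ETO2-GLIS2 line 9.06, 7.69 and 7.74 FPKM. The AML1-ETO library at 48 h, with 136 reads, was the lowest of the 9. It was 2.22-fold lower than at 0 h (log2 -1.15 [-1.45, -0.86]) and 3.06-fold lower than at 12 h. The interval of the first of these includes changes under 2-fold, and the call was lost with a pseudocount of 1 FPKM. In the other lines CLEC12A changed by log2 0.29 and -0.23 at 48 h. Of 34 other lectins, Siglecs and paired receptors, 15 passed in the AML1-ETO line, with 3 called higher and 4 lower. The largest of these were CD22 (0.0880 to 3.27 FPKM) and SIGLEC6 (22.2 to 0.399 FPKM). In the ETO2-GLIS2 line 6 of 17 were called higher and 1 lower, and in the empty vector line 2 of 16 higher and none lower. LAIR1, a collagen receptor with inhibitory motifs, was called higher in both of these lines, at 18.4 and 49.4 FPKM with ETO2-GLIS2 and 16.9 and 45.8 FPKM with the empty vector.

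CD4 (ENSG00000010610, chr12:6789528-6820799) was the most abundant of the 10 genes per length in every library except the ETO2-GLIS2 library at 48 h, in which FCER1G was higher. It was 172.7, 211.5 and 202.7 FPKM with the empty vector, 217.9, 239.0 and 191.3 FPKM with AML1-ETO and 179.1, 198.5 and 207.0 FPKM with ETO2-GLIS2. At 0 h with the empty vector, 99.4% of all detected genes lay below it. The T-cell genes CD3D, CD3E and CD3G were at 0. With 12803 to 16809 reads its intervals were narrow, and its 48 h changes were log2 0.23 [0.20, 0.27] with the empty vector, -0.19 [-0.22, -0.15] with AML1-ETO and 0.21 [0.18, 0.24] with ETO2-GLIS2. CD4 did not pass 2-fold in any comparison of lines or hours. In the uninduced empty vector line the order of the levels was CD4, FCER1G, CD33, CLEC12A, FCGR2A, FCGR1A, TLR4, TLR2, CD36 and CD14. The neighbours CD33, CLEC12A and FCGR2A, at 6.27, 5.97 and 5.78 FPKM, and FCGR1A and TLR4, at 3.42 and 3.35 FPKM, lay close together.

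**Figure D3:**
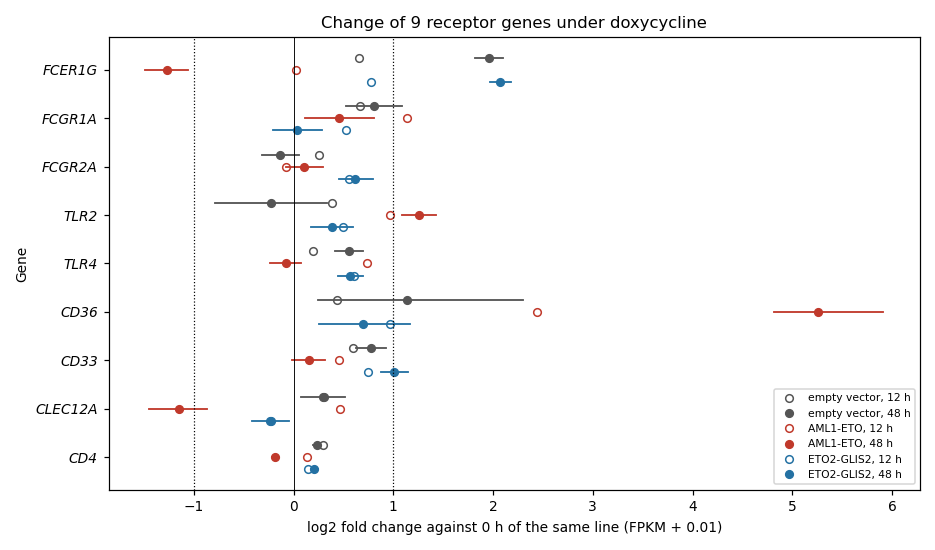
log2 fold change against 0 h of the same line (x axis) for 9 receptor genes (rows; CD14 is left out because it had at most 2 reads), at 48 h (filled points with 95% counting intervals) and 12 h (open points), in 3 colours for the 3 lines. The dotted lines mark 2-fold; at 48 h CD36 (5.26) and TLR2 (1.25) with AML1-ETO lie to the right of them, FCER1G (-1.27) and CLEC12A (-1.15) with AML1-ETO to the left, and to the right lie also FCER1G in both other lines, CD33 with ETO2-GLIS2 (1.01) and CD36 with the empty vector (1.13, under the expression filter).

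**Figure D4:**
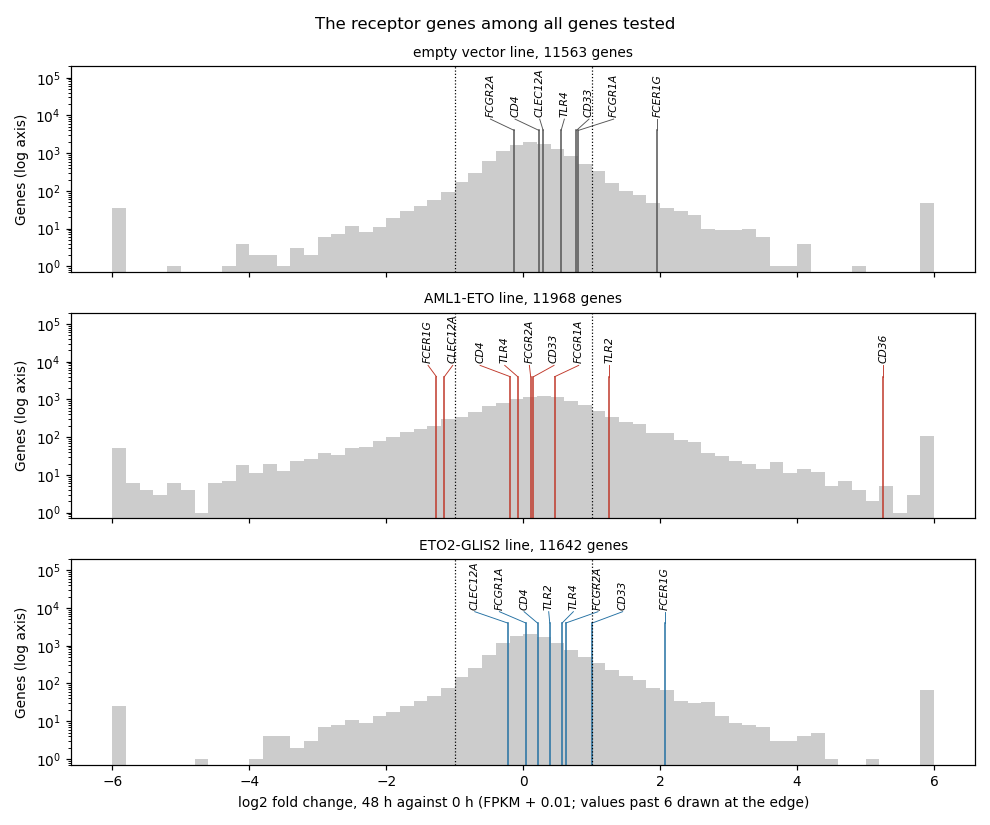
Number of genes (log axis) by log2 fold change at 48 h against 0 h in each line, over all genes with a mean of at least 1 FPKM, with the receptor genes that passed marked. CD36 with AML1-ETO (5.26) lies far out in the distribution, while most of the other receptor genes lie within 2-fold (dotted lines).

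The changes were then set against those of the empty vector line. With the empty vector's own log2 change at 48 h subtracted, 4 of 9 genes in the AML1-ETO line were past 2-fold, CD36 by 4.12, TLR2 by 1.48, CLEC12A by -1.44 and FCER1G by -3.23, beside 23.8% of all genes. In the ETO2-GLIS2 line 0 of 8 were, beside 8.37% of all genes, and the remaining differences ran from -0.76 for FCGR1A to 0.75 for FCGR2A. A direct comparison of the 48 h libraries with the empty vector gave the same 4 genes for AML1-ETO (23.3% of all genes called). It gave TLR2 alone for ETO2-GLIS2, at 7.48-fold (log2 2.90 [2.50, 3.37], 6.36% called), a difference that was already 4.90-fold at 0 h. Between the fusion lines at 48 h, CD36 was 11.4-fold and TLR2 2.50-fold higher, and FCER1G 12.9-fold and CLEC12A 2.81-fold lower, with AML1-ETO (21% called). All of these use the same 48 h libraries and are not independent of each other. The monocytic markers that summed to the lowest value in the AML1-ETO library at 48 h included SPI1, the gene of PU.1, which went from 92.6 to 11.9 FPKM. LYZ went from 970 to 45.1 FPKM. It was lower at 48 h in the other lines as well. The levels went from 1283 to 332 FPKM with ETO2-GLIS2, a call, and from 519 to 380 FPKM with the empty vector. ITGAM, another of these markers, went the other way there. It rose from 2.23 to 11.5 FPKM with ETO2-GLIS2 and from 1.17 to 2.78 FPKM with the empty vector, calls in both. Of the markers that passed the filter, 3 were above and 3 below their 0 h level with ETO2-GLIS2. With the empty vector 4 were above and 2 below, and with AML1-ETO all 5 were below. The part of these markers in the receptor values of the AML1-ETO library at 48 h was not tested. Of 25 other monocyte surface proteins, 15 passed the filter with AML1-ETO, of which 5 were called higher and 9 lower. The largest falls were those of the checkpoint receptor VSIR, from 11.5 to 0.319 FPKM, the aminopeptidase ANPEP (CD13), from 178 to 26.7 FPKM, and the TNF receptor TNFRSF1B, from 38.4 to 5.91 FPKM. With the empty vector 5 of 14 were called higher and 1 lower, and with ETO2-GLIS2 6 of 16 higher and 1 lower. C5AR1, the receptor of complement C5a, was called higher in all 3 lines, from 0.581 to 6.33 FPKM with the empty vector, from 0.773 to 2.55 FPKM with AML1-ETO and from 0.787 to 7.63 FPKM with ETO2-GLIS2.

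**Figure D5:**
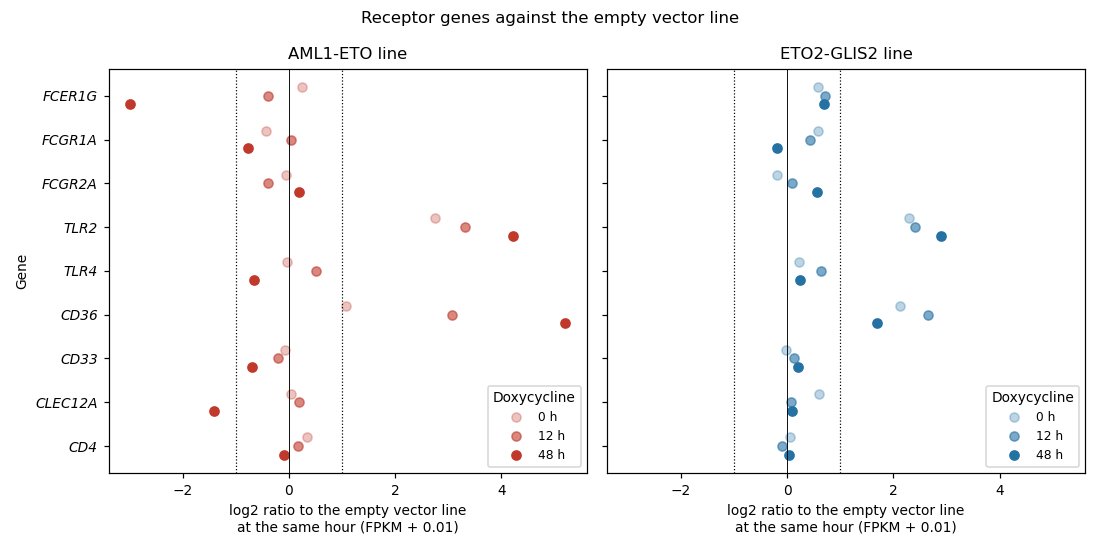
log2 ratio of the AML1-ETO line (left) and the ETO2-GLIS2 line (right) to the empty vector line at the same hour for 9 receptor genes (rows), with darker points for later hours and 1 library behind each value. TLR2 lies beyond 2-fold (dotted lines) at 0 h in both panels (2.75 and 2.29), as does CD36 (1.08 and 2.12) at levels under 1 FPKM, while FCER1G moves from 0.24 to -2.99 in the left panel.

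The genes whose time courses were most like those of the receptors were sought over 7220 genes with a mean of at least 5 FPKM, as the root mean square (RMS) difference of 6 log2 changes (12 and 48 h against 0 h in 3 lines). CD36 was nearest to PLIN2, which coats lipid droplets, and to FCAR, both at an RMS difference of 0.71. PLIN2 changed by log2 4.15 at 48 h in the AML1-ETO line. FCER1G was nearest to SH3PXD2A and CARD9, both at 0.47, and CARD9 changed by log2 1.11, -0.85 and 1.68 at 48 h in the empty vector, AML1-ETO and ETO2-GLIS2 lines. These distances were wider than those of the genes that changed less. CLEC12A lay at 0.18 from CLTB, TLR2 at 0.24 from CLECL1 and CD33 at 0.11 from PHGDH. CD4 lay at 0.058 from DGAT1, FCGR1A at 0.17 from LTV1, FCGR2A at 0.11 from MINDY1 and TLR4 at 0.14 from CLN6. The second nearest genes were NFYB for CLEC12A, ENKD1 for TLR2, MAT2A for CD33, IL13RA1 for CD4, GPX1 for FCGR1A, RBM19 for FCGR2A and SNHG1 for TLR4. The 6 changes share the 0 h library of each line, and the distances are a description.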

How the data were processed

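Total RNA of 9 U937 cultures was sequenced with a kit that does not mark strand, 1 library per condition. The authors aligned reads to hg38 with HISAT2 (2.0.5), used samtools (1.7), counted on genes with HTSeq (0.9.1) and deposited FPKM for every gene. The annotation version is not given in the sources used here. HTSeq's default leaves out reads that overlap 2 genes, so shared sequence lowers a value.

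Fold changes were computed from the deposited FPKM in Python (3.11.15; pandas 2.3.3, scipy 1.17.1, numpy 2.4.6) after adding 0.01 FPKM, which understates changes of low genes. Figures were drawn with matplotlib (3.10.9). Whole reads were recovered from the FPKM values for 99.7% of 23889 genes above 0 in at least 3 libraries, because a gene's values are multiples of what 1 read is worth. They served only for exact Clopper-Pearson and Poisson intervals and floors of 3 reads. Recovery and calling were tested on simulated data. Intervals and floors cover counting error only, since PCR duplicates cannot be told from separate molecules.

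Samples were grouped by line and hour from the labels. The genes and lists were chosen with earlier results of these data known. Named beyond them were partners, paralogs, up to 3 called genes per list and direction with the largest changes, and the 2 nearest time courses. Some genes of the lists are not reported here and were left out of the counts. No test was run. RefSeq windows and positions are from GRCh38.p14. Exon overlaps come from an annotation of another build, without coordinates. Alternatives covered the pseudocount, filter, scaling, threshold, hour and reference library.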

Additional observations from a re-analysis of the deposited data

Results flagged for a closer look

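FCER1G was flagged because its 48 h change was called in opposite directions in the 2 fusion lines. The AML1-ETO change minus the ETO2-GLIS2 change was -3.34 on the log2 scale, from -1.27 and 2.07. The empty vector line changed by 1.96, so AML1-ETO is the line that departs from it. The difference was not tested, since each condition had 1 library.

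Among the other listed genes, the same kind of opposite calls gave differences of -5.62 for FGR, a Src-family kinase downstream of Fc receptors, and of -6.96 for the immune checkpoint receptor VSIR, -3.29 for the thrombin receptor THBD and -3.37 for the natural killer receptor CD244. None of these differences was tested. Opposite calls were sought among the listed genes only and were not counted over all genes, so it is not known whether they were unusual. At 48 h against 0 h, 28.4% of all genes were called with AML1-ETO and 13.1% with ETO2-GLIS2, in either direction. THBD and CD244 were outside the naming rule and were chosen after their values were seen. For all 5 genes the empty vector line had a positive 48 h change, as the ETO2-GLIS2 line did.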

How the results depend on the processing

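The 7 calls of single receptor genes at 48 h kept their direction in all 40 values computed under the other pseudocounts, scaling and references. Many of these values could not have differed in direction. A pseudocount added to both libraries cannot turn a direction, and the sum over identifiers, also among the 40, repeats the value. The CD36 change with AML1-ETO was log2 2.73 at a pseudocount of 1 FPKM. Counts of called genes moved as follows, with the share of all genes called under the same setting in parentheses. In the empty vector line (1 called, 10.7%) there were 3 without the expression filter (14.6%), 3 at a 1.5-fold threshold (27.6%) and 0 at 12 h (7.25%). In the AML1-ETO line (4 called, 28.4%) there were 2 at a mean of at least 5 FPKM (21.0%), which removes CD36 and CLEC12A. There was 1 at 12 h (8.73%), and there were 3 with a pseudocount of 1 FPKM (19.4%), which removes CLEC12A. In the ETO2-GLIS2 line (2 called, 13.1%) there was 1 with a pseudocount of 0.1 FPKM (12.3%) or 1 FPKM (7.38%). There was 1 after median-ratio scaling (11.2%), 0 at 12 h (4.32%) and 0 with the empty vector change subtracted (8.37%). Against the empty vector line at 48 h there was 1 (6.36%), where the gene is TLR2 and not CD33 or FCER1G. There were 3 without the filter (15.6%) and 3 at 1.5-fold (28.4%), and 2 against the uninduced empty vector line (17.1%), where TLR2 takes the place of CD33. The calls added without the filter include CD14, which rests on at most 2 reads. Each setting changes only the choice it names. Scaling moved the median of all genes by 0.15 to 0.17 at 48 h and turned the direction of 3 changes, all under 2-fold (CD33 and FCGR2A with AML1-ETO, FCGR1A with ETO2-GLIS2). Taking the sum over identifiers of a name changed no value. No paired analysis was possible because each comparison within a line has 1 library per hour and no replicate numbers. A model of the hour over all 3 lines, with the line as a term, was not run. Levels under about 0.12 FPKM for CD14 lie below 3 reads.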
